A study of Mus musculus with 6 samples.

Results

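The transcripts of 10 molecular chaperone genes were followed in mouse two-cell embryos that carried extra PIASy, a SUMO E3 ligase encoded by Pias4. The genes were Hspa1a, Hspa1b, Hspa2, Hspa5, Hspa8 and Hspa9 of the HSP70 family, Hsp90aa1 and Hsp90ab1 of the HSP90 family, and Hspd1 and Hspe1, which encode mitochondrial HSP60 and its partner HSP10. They were chosen by symbol, with no measured value in the rule but with earlier results of these data known, and all 10 of them were found among the 53023 genes of the deposited table. Embryos of the ICR strain were compared in 3 groups at 28 hours post insemination (hpi), with 2 libraries per group and 5 pooled embryos per library. Non-injection embryos received no mRNA. PIASy-WT embryos received HA-tagged wild-type PIASy mRNA, and PIASy-Mut embryos received the same construct with the C335F change in the RING finger, the domain that carries the SUMO ligase activity. Each mRNA went in at 100 ng/µl from 1.5 to 3 hpi. The paper describes keeping embryos with a GFP or mCherry signal at 9 hpi for its culture to blastocysts, and does not state this for the libraries. No library came from embryos injected with an unrelated mRNA, so the effect of injection itself is seen here only through PIASy-Mut.

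HSP70 proteins bind exposed hydrophobic stretches of unfolded proteins in a cycle driven by ATP, which J-domain proteins (HSP40) stimulate and nucleotide exchange factors reset. HSP90 takes over part of these clients in a later step, with co-chaperones that choose the client or time the cycle, and the HSP60 and HSP10 complex encloses proteins inside mitochondria. Hspa1a and Hspa1b are heat-inducible genes that are also known among the early products of the embryonic genome in the mouse, whereas Hspa8, Hsp90ab1, the ER chaperone gene Hspa5 and the mitochondrial genes are expressed without heat in most cells.

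The positions below are on the mm10 assembly (GRCm38). Hspa1a (ENSMUSG00000091971.3) and Hspa1b (ENSMUSG00000090877.3) lie side by side on the minus strand at chr17:34969190-34972156 and chr17:34956436-34959238, with 9951 bases between them, and each has 1 exon in GENCODE M21. Their transcripts were identical at 2520 of 2772 aligned bases, or 90.91%. Of the 50-base sequences of Hspa1a, 66.3% also occurred in another annotated transcript, and for Hspa1b this was 62.3%. The authors counted uniquely mapped reads only. Reads that fitted both genes were then left out, so both levels and their sum may be understated, and the sum given beside the single values does not restore them. The stretches just upstream of both genes are printed to show how alike the pair is and where the heat shock core lies. They are taken from RefSeq (GRCm38.p6), run 5′ to 3′ on the minus strand and end 1 base before the annotated start. Capitals mark GAANNTTC, the core of the heat shock element bound by heat shock factors, and the CCAAT box, here on the other strand.
Hspa1a, chr17:34972157-34972306: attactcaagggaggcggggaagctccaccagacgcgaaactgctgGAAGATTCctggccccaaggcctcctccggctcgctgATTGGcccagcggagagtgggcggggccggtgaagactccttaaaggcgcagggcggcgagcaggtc
Hspa1b, chr17:34959239-34959388: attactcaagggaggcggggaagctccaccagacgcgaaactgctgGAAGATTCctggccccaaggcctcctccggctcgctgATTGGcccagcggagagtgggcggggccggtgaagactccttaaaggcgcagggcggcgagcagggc

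These upstream stretches were identical at 149 of 150 bases. Over the whole 250 bases upstream of the start, they were identical at 247 bases. The head-to-head pair Hspd1 (ENSMUSG00000025980.14, chr1:55077835-55088243, minus strand, up to 12 exons) and Hspe1 (ENSMUSG00000073676.4, chr1:55088132-55091307, plus strand, up to 4 exons) overlaps by 112 bases at the starts, and fragments from the overlap cannot be assigned unless counting used the strand, which the sources used here do not give. A triple element lies between the start of Hspe1 and one of 2 RefSeq starts of Hspd1, upstream of both. The other start of Hspd1, near the end of the gene as annotated above, lies on the far side of it, so that the element is inside the gene and the window of that start holds no core. It is shown on each strand with its cores in capitals (GAANNTTC and TTCNNGAA overlap in it).
Hspe1 strand, chr1:55088053-55088082: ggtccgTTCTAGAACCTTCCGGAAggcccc
Hspd1 strand, chr1:55088053-55088082: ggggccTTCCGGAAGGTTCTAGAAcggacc

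Hspa5 (ENSMUSG00000026864.13, chr2:34771970-34777547, plus strand, up to 9 exons) has instead a match to the ER stress element, the motif through which the unfolded protein response raises ER chaperone genes, in capitals below.
Hspa5, chr2:34772020-34772048: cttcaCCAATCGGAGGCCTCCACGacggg

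Searched on both strands over 250 bases upstream, GAANNTTC was present in 6.69% of 32851 RefSeq promoter windows, TTCNNGAA in 7.17%, either in 12.84%, CCAAT in 33.85%, TATAAA in 12.37% and the ER stress element (CCAAT and CCACG with 9 bases between them) in 0.11%. RefSeq windows were matched for 6 of the 10 genes. The windows of Hspa2 and Hspa5 and one of the 2 windows of Hspd1 held neither heat shock core, and no window of these 6 genes held TATAAA. A match is a description of letters and says nothing here about binding. The other members lie apart in the genome. Hspa8 (ENSMUSG00000015656.17) is at chr9:40800984-40810087 on the plus strand with up to 9 exons, and holds 3 snoRNA genes. Hspa2 (ENSMUSG00000059970.7) is at chr12:76404176-76406938, Hsp90aa1 (ENSMUSG00000021270.13) at chr12:110690605-110702728 and Hsp90ab1 (ENSMUSG00000023944.14) at chr17:45567775-45573271.

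Levels are given in FPKM, fragments per kilobase of gene, scaled to the total of the library, as deposited. They are per length, but comparisons of level between genes are limited by sequence shared with other transcripts, from which reads may not have been counted. The shares below include sequence of genes that overlap at the same place, and are not shares of reads lost. The share of 50-base sequences found elsewhere was 62.3% and 66.3% in the inducible pair, 47.5% in Hsp90aa1, 42.1% in Hspd1, 39.4% in Hspa8, 22.8% in Hspe1 and at most 3.44% in the other 4 genes. The libraries held 871663 to 1363928 fragments on genes. Pias4 read 2.98 and 3.59 FPKM without injection, 862 and 611 with PIASy-Mut and 610 and 579 with PIASy-WT, so both injected groups carried the injected sequence. All 12 oocyte markers had fragments in every library, as did all 10 two-cell transient markers in the table. Among the 15 cumulus and granulosa markers, Amh, Foxl2, Inha, Inhba and Col1a1 were at 0 in every library and 4 to 7 were above 0 per library, with a summed level of 8.69 to 13.2 FPKM. The sperm and testis markers summed to 1.96 to 5.89 FPKM, with Akap4 and Tnp2 at 0 throughout. One library stood apart in another way. Mitochondrially encoded protein genes took 1.25% of fragments in PIASy-Mut library 1 and 5.78% to 8.09% in the other 5. Spike-in RNA was not in the table, and in pooled embryos fewer expressing cells and less RNA per cell cannot be told apart.

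The inducible pair had the lowest group means of the 10 genes in non-injection embryos and was the most uneven between replicate libraries. Hspa1b was above Hspa2 in non-injection library 1, however, and the pair has the most sequence shared with other transcripts. Hspa1b read 13.1 and 3.79 FPKM without injection (50 and 12 fragments), 6.91 and 2.87 with PIASy-Mut (20 and 7) and 3.23 and 2.17 with PIASy-WT (12 and 7). Both PIASy-WT libraries were below both non-injection libraries, but the PIASy-Mut libraries spanned one of them. For Hspa1a the values were 6.67 and 1.19 FPKM without injection (27 and 4 fragments), 1.63 and 2.32 with PIASy-Mut (5 and 6) and 2.03 and 0.88 with PIASy-WT (8 and 3). Here every pair of groups overlapped, and the high value belonged to non-injection library 1 alone. The exact 95% Poisson intervals of the non-injection libraries, which cover counting error only, were apart for both genes. They ran from 4.40 to 9.71 against 0.325 to 3.05 FPKM for Hspa1a and from 9.71 to 17.2 against 1.96 to 6.61 for Hspa1b. The higher non-injection library was 5.60 times the lower one for Hspa1a and 3.46 times for Hspa1b, while for the other 8 genes this ratio lay between 1.07 and 1.51. Summed over the pair, the fragments were 77 and 16 without injection, 25 and 13 with PIASy-Mut and 20 and 10 with PIASy-WT.

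Group differences of the pair were therefore within the spread between replicates. With limma over the 16100 genes tested, the log2 fold change of PIASy-WT against non-injection was −1.16 for Hspa1b (standard error (SE) 0.63, 95% confidence interval −2.71 to 0.38, adjusted P = 0.282) and −0.78 for Hspa1a (SE 0.67, interval −2.41 to 0.85, adjusted P = 0.482). Without non-injection library 1 these values were −0.39 and 0.12, so the direction for Hspa1a rested on that library. Against PIASy-Mut they were −0.59 (adjusted P = 0.575) and −0.31 (adjusted P = 0.801). For Hspa1b the value against PIASy-Mut was −0.077 without PIASy-Mut library 1 and −1.11 without PIASy-Mut library 2. As 1 gene, the pair gave −1.14 relative to non-injection (adjusted P = 0.299) and −0.61 against PIASy-Mut (adjusted P = 0.574). These intervals hold both no change and a several-fold decrease, so the values do not show that there was no difference.

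**Figure D1:**
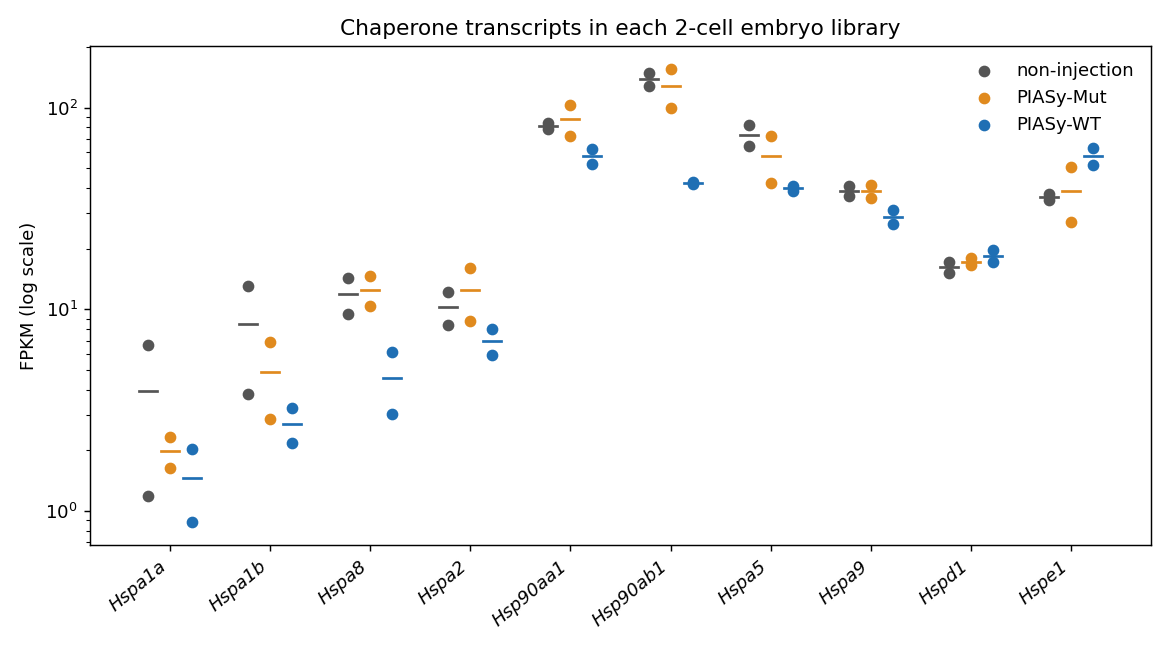
FPKM on a log axis of the 10 chaperone genes (points, 1 per library; short lines, group means of 2 libraries) in non-injection, PIASy-Mut and PIASy-WT two-cell embryos. Hsp90ab1 in PIASy-WT sits at 42.0 and 42.6 FPKM, below all 4 other libraries (99.1 to 156), while Hspa1a and Hspa1b are spread most widely within non-injection.

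The constitutive cytosolic HSP90 gene was the member that limma called. Hsp90ab1 encodes HSP90 beta, the form that most cells make without stress. It read 128 and 148 FPKM without injection, 156 and 99.1 with PIASy-Mut and 42.0 and 42.6 with PIASy-WT, from 147 to 523 fragments. Both PIASy-WT libraries were below the other 4, which overlapped one another. Its level fell by 1.68 on the log2 scale against non-injection (SE 0.29, interval −2.38 to −0.97, adjusted P = 0.0335) and by 1.53 against PIASy-Mut (SE 0.29, interval −2.24 to −0.83, adjusted P = 0.0380). The adjusted P was close to the threshold of 0.05. Of 16 alternative settings, 10 kept the call against non-injection, where no filter and no trend lost it (adjusted P = 0.0613 and 0.0629), and 5 kept that against PIASy-Mut, where it was lost with no filter, quantile normalization, median ratio scaling, no trend, the compared groups alone and the replicate block (adjusted P = 0.0519 to 0.120). The remaining losses came from leaving out a library, in fits that called 0 of the 16100 genes in that comparison and so say nothing about Hsp90ab1 in particular. The fit on the compared groups alone also called 0 of the 16100 genes against PIASy-Mut. The log2 fold change of Hsp90ab1 over the libraries left out was −1.78 to −1.57 against non-injection and −1.86 to −1.21 against PIASy-Mut. Only 3.44% of its 50-base sequences occurred in another transcript.

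Hsp90aa1 encodes HSP90 alpha, the stress-responsive cytosolic form. Its levels were 78.1 and 83.7 FPKM without injection, 103 and 72.7 with PIASy-Mut and 62.2 and 52.5 with PIASy-WT. The PIASy-WT libraries were again the lowest, but by less, with log2 fold changes of −0.49 relative to non-injection (interval −1.14 to 0.16, adjusted P = 0.278) and −0.59 against PIASy-Mut (adjusted P = 0.216). Over 16 alternative settings these ranged from −0.62 to −0.23 and from −0.83 to −0.24, with both smallest changes under quantile normalization. The ratio of Hsp90ab1 to Hsp90aa1 in FPKM was 1.64 and 1.77 without injection, 1.52 and 1.36 with PIASy-Mut and 0.676 and 0.813 with PIASy-WT. Both PIASy-WT ratios were thus below the 4 others. This ratio was described and not tested. Since 47.5% of the 50-base sequences of Hsp90aa1 occurred in other transcripts, mostly of the pseudogene Gm12346, its level may be understated, and the ratios do not show which form was more abundant.

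Hspa8 encodes HSC70, the constitutive cytosolic HSP70, and Hspa2 an HSP70 best known from the testis. Hspa8 read 14.3 and 9.46 FPKM without injection (84 and 46 fragments), 14.6 and 10.4 with PIASy-Mut (65 and 39) and 6.14 and 3.03 with PIASy-WT (35 and 15). Both PIASy-WT libraries were below the other 4. Hspa8 gave a log2 fold change of −1.24 relative to non-injection (SE 0.42, interval −2.26 to −0.22, adjusted P = 0.122) and −1.32 against PIASy-Mut (SE 0.42, adjusted P = 0.109), which did not pass. On fragments recovered from FPKM and tested with limma voom, Hspa8 passed in both comparisons (adjusted P = 0.0353 and 0.0319). Of its 50-base sequences 39.4% occurred in other transcripts, mainly of the pseudogene Gm15459. Hspa2 had 12.2 and 8.36 FPKM without injection, 8.79 and 16.1 with PIASy-Mut and 7.99 and 5.92 with PIASy-WT, with the lowest values in PIASy-WT and log2 fold changes of −0.49 (adjusted P = 0.457) and −0.71 (adjusted P = 0.307). The Hspa2 value against PIASy-Mut was −1.11 without PIASy-Mut library 1 and −0.31 without PIASy-Mut library 2. Against non-injection it ranged from −0.74 to −0.25 over 16 alternative settings, with −0.25 without non-injection library 1.

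Hspa5, the ER HSP70 known as BiP, read 64.8 and 82.0 FPKM without injection, 72.2 and 42.3 with PIASy-Mut and 38.7 and 40.9 with PIASy-WT. Its PIASy-WT libraries were the lowest, although PIASy-Mut library 2 came close to them. Relative to non-injection, Hspa5 had a log2 fold change of −0.86 (SE 0.32, interval −1.64 to −0.07, adjusted P = 0.150) and −0.46 against PIASy-Mut (adjusted P = 0.404). The latter was −0.086 without PIASy-Mut library 1 and −0.84 without PIASy-Mut library 2. Under voom Hspa5 passed against non-injection (adjusted P = 0.0427) and did not against PIASy-Mut (adjusted P = 0.257). None of its 50-base sequences occurred in another transcript.

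None of the mitochondrial members was called, and their log2 fold changes differed in sign. Hspa9 (ENSMUSG00000024359.8, chr18:34937414-34954357, minus strand), the mitochondrial HSP70 that pulls proteins into the matrix, read 36.4 and 40.9 FPKM without injection, 41.1 and 35.6 with PIASy-Mut and 30.9 and 26.6 with PIASy-WT, with log2 fold changes of −0.42 (adjusted P = 0.318) and −0.41 (adjusted P = 0.343). Hspd1 had the narrowest range of the 10 genes, at 17.2 and 15.1, 18.0 and 16.5, and 19.7 and 17.1 FPKM in the same order of groups. Relative to non-injection, its log2 fold change of 0.18 had an interval of −0.46 to 0.82, whose lower bound lies above the fall of Hsp90ab1. Hspe1 read 37.3 and 34.8 FPKM without injection, 26.9 and 50.6 with PIASy-Mut and 63.0 and 51.9 with PIASy-WT. It was the only member with both PIASy-WT libraries above the other 4, with log2 fold changes of 0.65 (interval −0.19 to 1.50, adjusted P = 0.272) and 0.62 (interval −0.23 to 1.46, adjusted P = 0.308) that did not pass. The PIASy-Mut libraries lay on either side of the non-injection values for Hspe1, and its log2 fold change against PIASy-Mut was 0.17 without PIASy-Mut library 1 (adjusted P = 0.700) and 1.06 without PIASy-Mut library 2 (adjusted P = 0.0481). Pseudogenes named after Hspa9, Hspd1 and Hspe1 held 0 to 3 fragments each per library. Since only uniquely mapped reads were counted, these values do not show how many reads of these genes were left out.

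**Figure D2:**
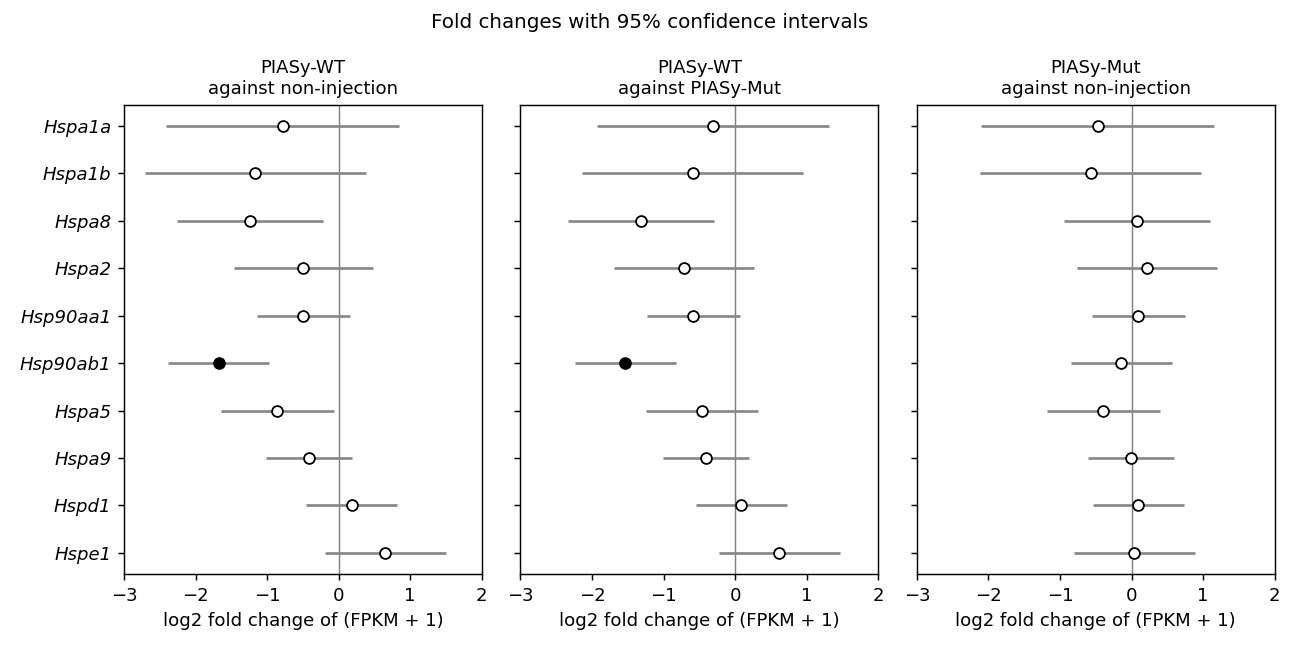
Difference in log2(FPKM + 1) of each chaperone gene with its 95% confidence interval from limma over 6 libraries, in 3 comparisons; filled points had an adjusted P of at most 0.05. Only Hsp90ab1 is filled, at −1.68 against non-injection and −1.53 against PIASy-Mut, and no point is filled in PIASy-Mut against non-injection.

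Counted over the 10 genes, 1 was called lower in PIASy-WT against non-injection, where 5.76% of all 16100 genes tested were, and 0 were called higher, where 1.03% were. Against PIASy-Mut the counts were again 1 and 0, with 6.01% and 0.82% of all genes. All 10 members passed the filter, which asks for an FPKM of 1 or more in 2 or more libraries. No member was called higher in limma in either comparison. None was higher at an unadjusted P under 0.05, where 10.6% and 9.46% of all genes were, or under voom, which tested 9 of them and called 8.51% and 5.94% of all genes higher. At an unadjusted P under 0.05, 3 members were lower against non-injection and 2 against PIASy-Mut, beside 17.6% and 18.2% of all genes. Voom called 3 and 2 of 9 lower, beside 19% and 18.8% of the 10193 genes it tested. The median log2 fold change of the 10 genes was −0.64 relative to non-injection and −0.53 relative to PIASy-Mut, beside 0.01 and −0.03 over all genes, and 8 of the 10 were negative in each, beside 49.1% and 51.3% of all genes. These values are from the main setting. Quantile normalization raised all 10 log2 fold changes in each comparison, with the same 8 still negative. Against PIASy-Mut, Hspa5 became −0.097 and Hspa9 −0.038. Both PIASy-WT libraries were below both non-injection libraries for 7 members and above for 1, where 31.9% and 29.8% of all genes did so. Against PIASy-Mut this held for 6 and 1, with 31.0% and 25.5% over all genes. These comparisons share the PIASy-WT libraries, so their values are not independent of each other.

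No member differed detectably between embryos with mutant PIASy and non-injected embryos. In PIASy-Mut against non-injection limma called 0 members lower (0% of all genes) and 0 higher (0.00621% of all genes, which was Pias4 alone), with 0 at an unadjusted P under 0.05 (2.09% of all genes lower and 2.37% higher) and 0 under voom (0% and 0.0196%). Log2 fold changes ran from −0.57 for Hspa1b to 0.22 for Hspa2, and the groups overlapped for all 10 genes. The interval for Hsp90ab1 was −0.85 to 0.56 and that for Hspa5 −1.18 to 0.39, so changes of this size remain possible. Over all genes tested, the median absolute log2 difference between replicate libraries was 0.62 in PIASy-Mut, 0.37 in non-injection and 0.37 in PIASy-WT. For the 8 genes other than the pair, the ratio of the higher to the lower library reached 1.88, 1.51 and 2.02 in the same order.

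The order of levels in non-injection was Hsp90ab1 (138 ± 14.3 FPKM, mean ± SD, n = 2), Hsp90aa1 (80.9 ± 3.91), Hspa5 (73.4 ± 12.1), Hspa9 (38.6 ± 3.23), Hspe1 (36.1 ± 1.77), Hspd1 (16.1 ± 1.52), Hspa8 (11.9 ± 3.44), Hspa2 (10.3 ± 2.72), Hspa1b (8.43 ± 6.57) and Hspa1a (3.93 ± 3.87). Neighbours whose libraries overlapped were Hsp90aa1 and Hspa5, Hspa9 and Hspe1, and each pair from Hspa8 down to Hspa1a. In PIASy-Mut the order was kept except that Hspe1 (38.8 ± 16.7 FPKM) came just before Hspa9 (38.4 ± 3.93). Neighbours that overlapped there were Hsp90ab1 and Hsp90aa1, Hspa5 and Hspe1, Hspe1 and Hspa9, and Hspa8 and Hspa2. In PIASy-WT Hspe1 (57.4 ± 7.79 FPKM) and Hsp90aa1 (57.3 ± 6.88) shared the first place with overlapping libraries, followed by Hsp90ab1 (42.3 ± 0.446) and Hspa5 (39.8 ± 1.57). Hspa2 (6.96 ± 1.46 FPKM), Hspa8 (4.59 ± 2.20) and Hspa1b (2.70 ± 0.748) overlapped in turn, and Hspa1a (1.46 ± 0.816) was last in all 3 groups.

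**Figure D3:**
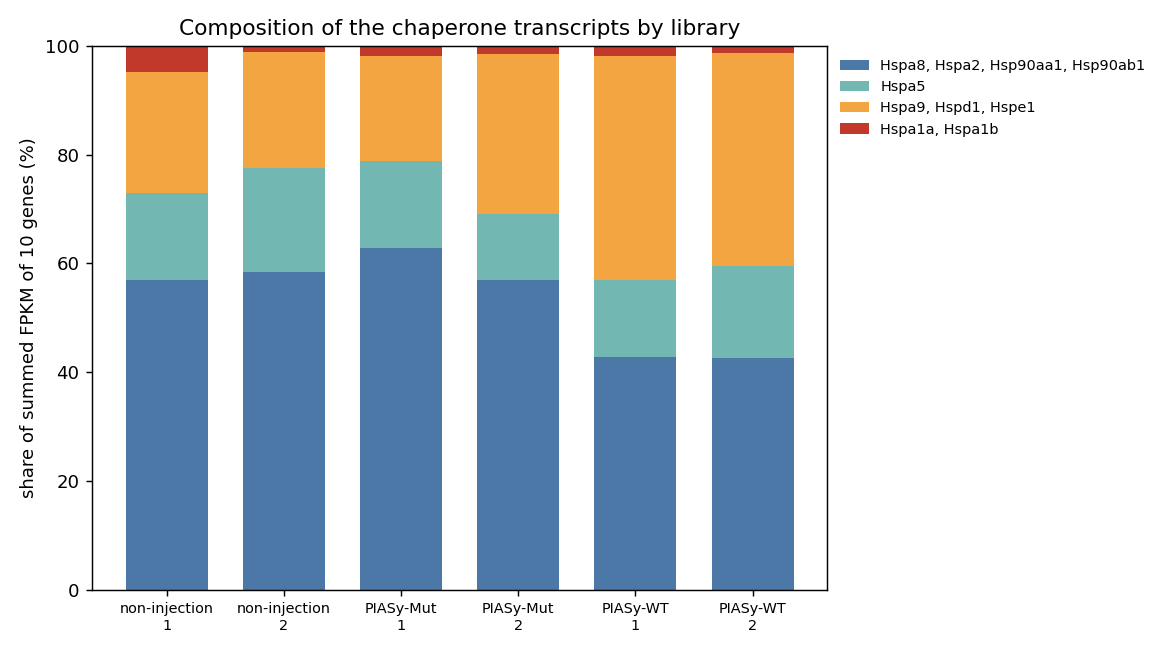
Share (%) of the summed FPKM of the 10 genes in each library, stacked by compartment, with 2 bars per group. Hspa9, Hspd1 and Hspe1 make up 41.2% and 39.2% in PIASy-WT against 19.2% to 29.5% in the other 4 libraries, and Hspa1a with Hspa1b at most 4.84%.

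Set against the constitutive, ER and mitochondrial genes, the inducible pair was a small part of the counted chaperone transcripts in all groups, with the limit that it has the most sequence shared with other transcripts. The summed level of the 10 genes was 408 and 427 FPKM without injection, 449 and 348 with PIASy-Mut and 276 and 244 with PIASy-WT. Hspa1a and Hspa1b together held 4.84% and 1.17% of it without injection, 1.90% and 1.49% with PIASy-Mut and 1.91% and 1.25% with PIASy-WT, so the shares of the groups overlapped. Mitochondrial genes held 22.3% and 21.2%, 19.2% and 29.5%, and 41.2% and 39.2% in the same order of groups. Cytosolic genes other than the pair held 57.0% and 58.4%, 62.8% and 56.9%, and 42.9% and 42.7%. Hspa5 held 12.1% to 19.2%, with no group apart from the others. In shares PIASy-WT was therefore apart for the mitochondrial and cytosolic classes. In summed level the cytosolic class read 118 and 104 FPKM in PIASy-WT against 198 to 282 in the other 4 libraries. The mitochondrial genes summed to 90.9 and 90.8 FPKM without injection, 86.1 and 103 with PIASy-Mut and 114 and 95.6 with PIASy-WT, which overlapped PIASy-Mut. The shares and sums are given as a description, with no test.

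The genes most alike to the inducible pair over the 6 libraries were Fam212a (Pearson r = 0.97), Eif1ax (0.95), Pgk1 (0.94), Rps6kb1 (0.94) and Zfp207 (0.91), among 5625 genes that reached an FPKM of 10 in 2 or more libraries. The measure was the correlation of log2(FPKM + 1) with the mean of Hspa1a and Hspa1b, and the points share their libraries and depth. Fam212a read 36.8 FPKM in non-injection library 1 and 10.5 to 16.1 in the other 5, the same high library as the pair. Among the other chaperone genes Hspa8 was the most alike (r = 0.73), though 162 genes had a higher r, and Hspe1 the least (r = −0.39).

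The genes that work with the 10 members were counted in family lists written from general knowledge. Calls by limma at the adjusted P are to be read against 5.76% of all genes lower against non-injection and 6.01% against PIASy-Mut, counts at an unadjusted P under 0.05 against 17.6% and 18.2%, and voom calls against 19% and 18.8%. Of 8 tested HSP70 relatives, 1 was called lower in each comparison and 0 higher. At an unadjusted P under 0.05, 3 were lower in each, and voom called 3 of 6 lower in each. The gene limma called was Hspa14, a ribosome-associated HSP70. It read 55.7 and 58.0 FPKM without injection, 45.1 and 36.8 with PIASy-Mut and 10.8 and 9.65 with PIASy-WT (log2 fold change −2.37, adjusted P = 0.0224 against non-injection). Its gene overlaps Gm45902 on the same strand, so its fragments are less certain. Hsph1, an HSP110 that exchanges nucleotide on HSP70, had 9.79 and 10.7 FPKM in non-injection and 3.53 and 1.56 in PIASy-WT, and did not pass (log2 fold change −1.72, adjusted P = 0.0564).

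Of the nucleotide exchange factors of HSP70, 3 of 10 tested were called lower and 0 higher in each comparison, beside 5.76% and 6.01% of all genes. At an unadjusted P under 0.05, 5 were lower against non-injection and 4 against PIASy-Mut, beside 17.6% and 18.2%. Voom called 4 of 8 lower in each, beside 19% and 18.8%. Bag5 read 44.1 and 58.9 FPKM without injection, 51.8 and 31.6 with PIASy-Mut and 5.11 and 3.47 with PIASy-WT (log2 fold change −3.31, adjusted P = 0.0224). Hspbp1 had 12.4 and 15.9 FPKM in non-injection against 1.60 and 0 in PIASy-WT, from 4 and 0 fragments (log2 fold change −3.22, adjusted P = 0.0311). Bag1 changed from 67.4 and 87.2 FPKM to 16.2 and 28.4 (log2 fold change −1.79, adjusted P = 0.0491). Bag3, the stress-induced member of this group, was at 4.01 and 3.80 FPKM in non-injection and 2.36 and 5.09 in PIASy-WT, where the groups overlapped (log2 fold change −0.12, adjusted P = 0.884).

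HSP90 co-chaperones gave 3 of 15 lower and 0 higher in each comparison, beside 5.76% and 6.01% of all genes. The count lower was also 3 at an unadjusted P under 0.05 and 3 of 14 under voom in each, near the 17.6% and 18.2%, and 19% and 18.8%, of all genes. At an unadjusted P under 0.05, 1 was higher against non-injection and 2 against PIASy-Mut, as under voom, which is to be read against 10.6% and 9.46% of all genes, and 8.51% and 5.94% under voom. Stip1, which hands clients from HSP70 to HSP90, read 134 and 130 FPKM without injection, 187 and 95.6 with PIASy-Mut and 37.2 and 38.4 with PIASy-WT (log2 fold change −1.77, adjusted P = 0.0417). Fkbp4 and Ppid, immunophilins of steroid receptor complexes, had log2 fold changes of −1.81 (adjusted P = 0.0405) and −1.67 (adjusted P = 0.0442). This list had a median log2 fold change of −0.30 relative to non-injection and −0.02 relative to PIASy-Mut, and 12 of the 15 genes were not called. Of the other HSP90 genes, mitochondrial Trap1 read 10.5 and 9.97 FPKM in non-injection and 1.76 and 0.676 in PIASy-WT, from 6 and 2 fragments (log2 fold change −2.39, adjusted P = 0.0442), and ER Hsp90b1 had 30.9 and 42.3 against 33.7 and 35.0 (log2 fold change −0.07, adjusted P = 0.881).

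J-domain proteins gave 1 of 21 lower and 0 higher in each comparison, a share below the 5.76% and 6.01% of all genes. At an unadjusted P under 0.05 the count was 3 in each, beside 17.6% and 18.2%, and voom called 4 and 3, beside 19% and 18.8%. This was Dnajb14, at 29.3 and 33.3 FPKM in non-injection and 4.31 and 2.16 in PIASy-WT (log2 fold change −2.98, adjusted P = 0.0325). Dnajb1, the heat-inducible HSP40, was at 45.1 and 35.6 FPKM without injection, 38.7 and 30.1 with PIASy-Mut and 44.7 and 48.1 with PIASy-WT (log2 fold change 0.21, adjusted P = 0.634). Of 22 genes of ER folding and the unfolded protein response, 1 was lower and 0 higher in each comparison, again below the share of all genes. At an unadjusted P under 0.05, 6 were lower against non-injection, beside 17.6% of all genes, and 8 lower and 1 higher against PIASy-Mut, beside 18.2% and 9.46%. Voom called 6 of 21 lower in each, beside 19% and 18.8%. The gene called was Pdia3, a disulfide isomerase, with 131 and 129 FPKM in non-injection and 37.5 and 39.6 in PIASy-WT (log2 fold change −1.73, adjusted P = 0.0361). Mitochondrial folding and proteolysis gave 2 of 15 lower and 0 higher in each. At an unadjusted P under 0.05, 8 were lower against non-injection and 7 against PIASy-Mut, beside 17.6% and 18.2%. Voom called 7 and 5 lower, beside 19% and 18.8%. The genes limma called were Trap1 and Clpx, the ATPase of the matrix protease. Clpx read 77.2 and 83.3 FPKM in non-injection and 20.1 and 14.4 in PIASy-WT (log2 fold change −2.17, adjusted P = 0.0310).

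Heat shock factors and their regulators gave no call among 4 tested genes. Hsf1, the main activator of heat shock genes, read 6.03 and 7.89 FPKM without injection, 5.22 and 11.1 with PIASy-Mut and 10.8 and 13.8 with PIASy-WT, and did not pass (log2 fold change 0.74, adjusted P = 0.292). Hsf2 stayed between 0.202 and 1.27 FPKM, below the filter. At an unadjusted P under 0.05, limma gave 1 gene higher against non-injection, and 1 lower and 1 higher against PIASy-Mut, and voom called 1 of 5 higher in each comparison of PIASy-WT. The shares of all genes higher were 10.6% and 9.46% at the unadjusted P and 8.51% and 5.94% under voom. Small heat shock proteins likewise gave 0 of 5, with 1 lower and 1 higher at an unadjusted P under 0.05 against non-injection and 0 of 3 under voom, and with 1 lower against PIASy-Mut, which voom also called. Hspb1, HSP27, had 71.1 and 60.9 FPKM without injection, 96.8 and 54.5 with PIASy-Mut and 38.1 and 23.6 with PIASy-WT (log2 fold change −1.11, adjusted P = 0.123).

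**Figure D4:**
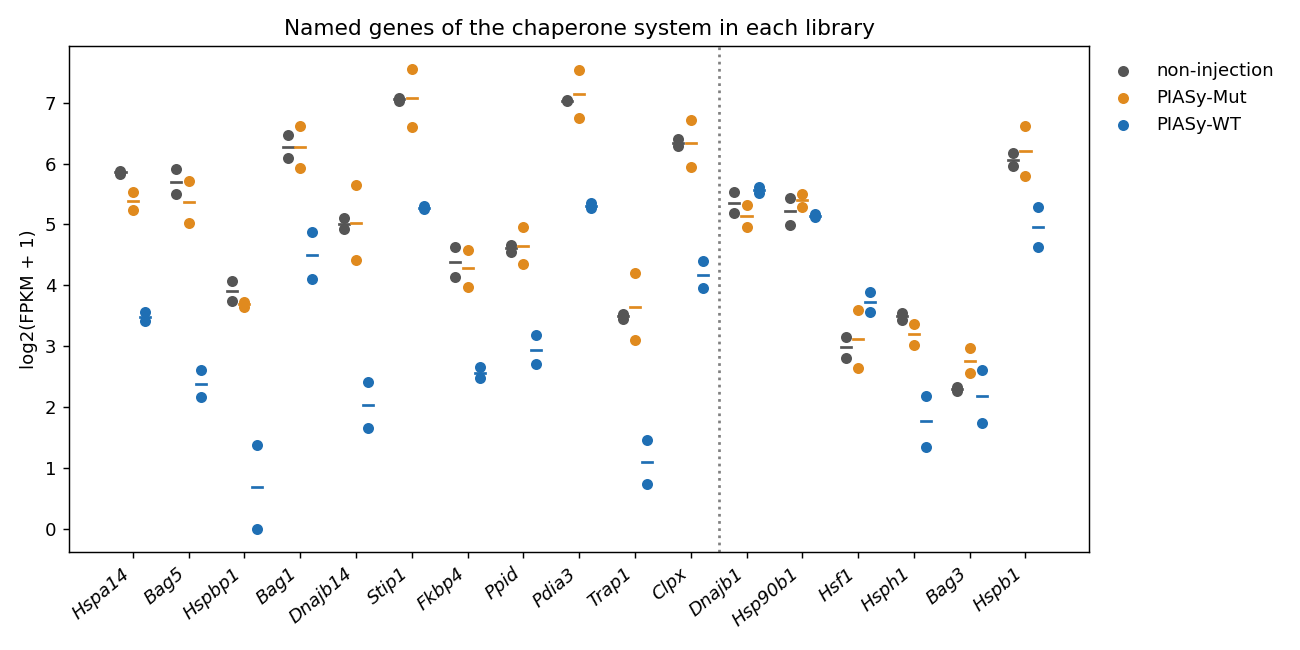
Level as log2(FPKM + 1) of named genes that work with the chaperones (points, 1 per library; short lines, group means of 2 libraries). Left of the dotted line are the 11 genes called lower in both comparisons of PIASy-WT, such as Bag5 at 5.11 and 3.47 FPKM, and right of it 6 genes that did not pass, such as Dnajb1 and Hsp90b1.

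Other values moved with the PIASy-WT group. The 12 oocyte markers summed to 1806 and 2007 FPKM in PIASy-WT, 822 and 837 in non-injection and 732 and 1311 in PIASy-Mut. The largest part of this sum was Bmp15, named here after its values were seen, at 1283 and 1478 FPKM in PIASy-WT, 482 and 461 in non-injection and 328 and 745 in PIASy-Mut, which did not pass (adjusted P = 0.0737 against non-injection). Of the 12, 1 was called lower (Zp3, log2 fold change −1.57, adjusted P = 0.0292) and 0 higher, beside 5.76% and 1.03% of all genes. Against non-injection 3 were higher at an unadjusted P under 0.05 and 2 under voom, beside 10.6% and 8.51%. The two-cell transient markers summed to 1028 and 740 FPKM in PIASy-WT and 1442 to 1699 in the other 4 libraries, with 1 of 10 lower against non-injection (Tdpoz4, log2 fold change −1.69, adjusted P = 0.0318) and 2 against PIASy-Mut (also Tcstv3, −1.39, adjusted P = 0.0499), beside 5.76% and 6.01% of all genes. Both at an unadjusted P under 0.05 and under voom, 3 and 4 of 10 were lower, beside 17.6% and 18.2%, and 19% and 18.8%. Of the cumulus and granulosa markers, 1 of 4 tested was lower against non-injection (Amhr2, −1.86, adjusted P = 0.0427). The other 3 had positive log2 fold changes and did not pass, the median of the 4 was 0.65, and 2 were higher at an unadjusted P under 0.05, beside 10.6% of all genes. The 1 tested sperm marker was not called. The part of any of these in the levels of the chaperone genes was not tested.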

How the data were processed

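RNA-seq was performed by the authors with SMART-Seq v4 (11 cycles) and Nextera XT (13 cycles). They trimmed reads, used STAR for alignment to mm10 and featureCounts to count reads that mapped uniquely. The FPKM values deposited by the authors for 53023 genes and 6 libraries were used, with the gene lengths of that table. The annotation release is not given in the sources used here. FPKM times length gave whole fragments for 100% of values above 0 (within 0.01), which gives the depth. Injected sequence counted on Pias4 is part of each library total.

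The 10 genes and all lists were chosen with earlier results of these data known. The named genes were the 10 members, up to 3 called genes per list, Hsp90b1, Trap1, Hsf1, Hsf2, Dnajb1, Hsph1, Bag3, Hspb1 and Pias4, and the 5 genes most correlated with the Hspa1a and Hspa1b mean.

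Groups were compared with limma 3.58.1 (R 4.3.3; lmFit, eBayes with trend) on log2(FPKM + 1) over all 6 libraries without a block. A gene was tested where 2 or more libraries reached an FPKM of 1, and a call needed a Benjamini-Hochberg adjusted P of at most 0.05 over all of them. The pseudocount of 1 understates changes of low genes. The authors used a count test. Since the table holds FPKM, limma was used here, with voom for the recovered fragments. The study calls its n biological replicates, but the labels do not say what separated both pools of a group, so P-values measure only the spread between these libraries. The code of the fit was also run on simulated data, whose values are not used for any result here. Alternatives were other pseudocounts (0.1 and 5), filters, scalings and settings, voom on recovered fragments, a replicate block and leaving out each library, and their use on the lists was added after seeing the data. Sequences came from GENCODE M21 and RefSeq, with Python 3.11.15 and biopython 1.88.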

Additional observations from a re-analysis of the deposited data

How the results depend on the processing

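With 2 libraries per group, calls near the threshold depended on the setting. Against non-injection the 1 member called lower, Hsp90ab1, was kept by both other pseudocounts, the stricter filter, quantile normalization, median ratio scaling, the fit on the compared groups only and the replicate block. The count was 0 with no filter and with no trend, 3 under voom on recovered fragments (Hspa8 and Hspa5 added), and 0 to 1 when a library was left out. Against PIASy-Mut it was 0 with no filter, quantile normalization, median ratio scaling, no trend, the compared groups only and the replicate block (Hsp90ab1 adjusted P = 0.0523), 2 under voom, and 0 to 1 when a library was left out. The count called higher against PIASy-Mut was 0 to 1 when a library was left out, the 1 being Hspe1 without PIASy-Mut library 2 (1.06, adjusted P = 0.0481, against 0.17 without PIASy-Mut library 1). Hsp90ab1 was negative against both groups under all 16 alternatives. Over all genes, samples with the same replicate number showed little shared deviation (correlations 0.00, 0.09 and 0.06). This cannot decide whether the numbers pair the samples, since 2 libraries give a single difference per gene and group. Hspa1b, Hspa8 and Hspd1 were higher in library 1 than in library 2 of every group, and the other members were not. The replicate block gave 1 member lower against non-injection. There it lowered the adjusted P of Hspa1a, Hspa1b and Hspa8, without a call, and raised that of each other member. Signs turned only in differences that were not called. Hspe1 in PIASy-Mut against non-injection was −0.019 with quantile normalization and −0.018 with median ratio scaling. Leaving out a library turned the sign in the other cases, and the cause was not tested. Over the libraries left out, Hspa1a ranged from −1.68 to 0.12 in PIASy-WT against non-injection, where only leaving out non-injection library 1 gave the positive value, and from −0.65 to 0.038 against PIASy-Mut, and Hspd1 from −0.0076 to 0.18 against PIASy-Mut. In PIASy-Mut against non-injection the ranges were −1.38 to 0.43 for Hspa1a, −1.35 to 0.21 for Hspa1b, −0.20 to 0.35 for Hspa8, −0.18 to 0.62 for Hspa2, −0.15 to 0.34 for Hsp90aa1, −0.47 to 0.18 for Hsp90ab1, −0.11 to 0.091 for Hspa9 and −0.41 to 0.48 for Hspe1. Over all genes the 928 lower calls against non-injection became 154 with no filter, 256 with no trend, 1563 with the compared groups only, 1941 under voom, and 0 without a library of either group, where 1 library is assumed to vary like the others. The 968 against PIASy-Mut became 243, 464, 0 and 1913 under the first 4 of these, and 0 without any library other than PIASy-Mut library 2. Quantile normalization moved the median of all genes to 0.12 and 0.11. The counts called lower in the chaperone lists reached 0 under at least 4 of the 16 alternatives where they were above 0, and rose to at most 4 for J-domain proteins, 6 for ER folding and 7 for mitochondrial folding. Hspa1a and Hspa1b rested on 3 to 50 fragments per library.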
